A study of Mus musculus with 10 samples.

Results

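The genes described here make and control the MHC class II molecules through which cells show peptides to CD4 T cells. The set held 8 genes named by their role: H2-Aa, H2-Ab1, H2-Eb1, H2-DMa, H2-DMb1, H2-Oa, Cd74 and Ciita. A gene was measured if the annotation of the array gave its symbol alone for a row of the table, and 7 of the 8 met this rule, of 30063 genes in all. Each of the 7 rested on 1 row. The row of Cd74, the invariant chain that fills the groove of new class II molecules, also carries the symbol Mir5107, so Cd74 has no value here.

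Whole kidneys of mice 5 weeks old were measured on Affymetrix whole-transcript arrays, 1 array per mouse. The knockout group was 5 mice with Lkb1 (gene symbol Stk11) deleted in kidney tubules, bred from Lkb1flox/flox mice of mixed genetic background and KspCre mice. KspCre expresses the recombinase from the promoter of Cdh16, a cadherin of tubule epithelium, so leukocytes are not its target. The control group was 5 littermates with 1 or 2 floxed alleles and no KspCre, so effects of the recombinase and of the deletion cannot be told apart. The titles call the knockouts STK11_KD and their strain label reads C57Bl/6N, as it does for the controls. Class II genes differ in sequence between mouse strains, and whether alleles differed between these mice was not tested.

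Class II molecules are pairs of an alpha and a beta chain, which in mice form the I-A and I-E molecules. New pairs are held by the invariant chain, which cathepsins cut down to a fragment, and the H2-DM pair then exchanges that fragment for peptides. Ciita, the class II transactivator, switches on the whole set by joining factors that sit on the X and Y boxes of the promoters. Dendritic cells, B cells and macrophages express class II genes constantly, and interferon gamma can induce them in other cells, including kidney tubule cells.

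Values are log2 expression values made by RMA, which normalises arrays to a shared distribution. Every difference is the knockout mean minus the control mean, in log2 units, estimated with limma, with p-values adjusted over all 30063 genes by the Benjamini-Hochberg method and a threshold of 0.05. The labels give 5 mice per genotype, so the replicates are animals. Stk11 itself lay lower in each of the 5 knockouts than in any control: it averaged 9.18 ± 0.10 in knockouts and 9.43 ± 0.03 in controls (SD, n = 5 each; limma adjusted p = 0.00746). Tubule markers were bright on the arrays, with Umod, the uromodulin gene of the thick ascending limb, at 12.70 in knockouts and 13.16 in controls. Of 8 tubule markers, Umod, Slc12a1 and Lrp2 fell, Aqp2 rose and 4 did not pass, with a median log2 difference of -0.10. Each array carries 5222 negative control probe sets, and their median, called the background line here, was 5.10 to 5.37 over the 10 arrays; a gene under it in both groups has no fold. One control kidney stood apart for class II genes: control 1 was the highest control for 6 of the 7 genes, and values without it are given where they change a call or a description.

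The promoters are shown first because Ciita is known to act through their X and Y boxes. Promoter windows from RefSeq (build GRCm38.p6) were found for H2-Aa, H2-Eb1, H2-DMa, H2-DMb1 and H2-Oa among the genes printed here. The 150 bases before the annotated start follow, 5′ to 3′ on the strand of the gene, with capitals marking matches to an X1 box core (AG, a pair of free bases, AC, a free base, GATG) and to a Y box (CTGATTGG), searched on both strands.
H2-Aa, chr17:34287824-34287973, minus strand: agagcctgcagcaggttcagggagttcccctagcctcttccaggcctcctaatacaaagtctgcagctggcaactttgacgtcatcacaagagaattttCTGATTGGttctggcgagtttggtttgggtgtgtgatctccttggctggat
H2-Eb1, chr17:34305717-34305866, plus strand: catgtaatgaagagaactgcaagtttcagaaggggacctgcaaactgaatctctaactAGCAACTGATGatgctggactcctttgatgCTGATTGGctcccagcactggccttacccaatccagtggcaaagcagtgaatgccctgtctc
H2-DMb1, chr17:34153041-34153190, plus strand: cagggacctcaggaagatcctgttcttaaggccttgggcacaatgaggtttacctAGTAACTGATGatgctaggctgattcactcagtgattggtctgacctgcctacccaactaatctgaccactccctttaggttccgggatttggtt
H2-Oa, chr17:34092229-34092378, plus strand: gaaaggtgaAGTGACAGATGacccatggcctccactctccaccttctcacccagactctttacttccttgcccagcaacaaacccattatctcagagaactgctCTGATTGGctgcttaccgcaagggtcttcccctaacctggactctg

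H2-Eb1 and H2-Oa held both motifs in the 250 bases before the start, H2-Aa held the Y box and H2-DMb1 the X1 core. Neither H2-DMa window held either, but both lie inside the annotated gene. They follow its first base at 34119693, with the printed length ending at 34122831 and 34125517. The bases before that first base were not searched. Counted from the start, the X1 core of H2-Eb1 lay at -92 to -82 and its Y box at -62 to -55. In H2-DMb1 the X1 core lay at -95 to -85, close to its place in H2-Eb1, whereas the match in H2-Oa lay farther upstream at -141 to -131. The Y box lay at -51 to -44 in H2-Aa and at -46 to -39 in H2-Oa. Over all 32851 RefSeq windows, 0.816% held the X1 core in those 250 bases, 3.83% held the Y box and 0.0304% (10 windows) held both. H2-Eb2, a neighbour of H2-Eb1 that is not among the 8, was another of those 10. The interferon-activated motif GAS (TTCNNNGAA) was in 7.02% of windows and in none of the 6 windows of the class II set. At that share, 6 windows are too few for an absence to be read. H2-DMb2, also not among the 8, held GAS at -218 to -210. A match describes letters, not a bound site.

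Of the 7 measured class II genes, 5 rose in knockout kidneys, 0 fell and 2 did not pass. Over all genes 5.37% rose and 2.67% fell, 8.04% in either direction. The median log2 difference of the 7 was 0.43, beside -0.03 over all genes. The 3 chain genes of the class II molecules had differences close to 1, about 2-fold, while the editor and transactivator genes had smaller ones. Groups did not overlap for 2 of the 7, H2-Aa and H2-Eb1, whereas 5.08% of all genes were higher and 3.51% lower in knockouts without overlap. The count of 5 was 3 without knockout 1, 2 or 3 or control 3 or 4, and 6 without control 1; the genes that moved were H2-DMa, Ciita and H2-DMb1.

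H2-Aa encodes the alpha chain of I-A and lies on chromosome 17 at 34282744 to 34287823. It measured 8.01, 8.02, 7.85, 7.40 and 7.59 in knockouts 1 to 5, against 6.92, 6.64, 6.45, 6.33 and 6.93 in controls 1 to 5. The lowest knockout lay above the highest control. The means were 7.77 ± 0.27 in knockouts and 6.66 ± 0.27 in controls (SD, n = 5 each), so the log2 difference was 1.12 (SE 0.14, limma adjusted p = 0.00075), or 2.17-fold with a 95% interval of 1.75 to 2.68. This was the largest difference among the 7 genes. Its mean lay above 94.0% of negative control probe sets in knockouts and above 81.7% of them in controls.

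H2-Ab1 encodes the beta chain that pairs with it and lies on chromosome 17 at 34263227 to 34269418. Its values were 10.77, 10.66, 10.71, 10.10 and 10.31 in knockouts 1 to 5, against 10.17, 9.58, 9.23, 9.10 and 9.70 in controls 1 to 5. The groups overlapped through 1 pair, as control 1 lay above knockout 4, and the other 4 controls lay below every knockout. The means were 10.51 ± 0.29 in knockouts and 9.56 ± 0.42 in controls (SD, n = 5 each), which is 1.93-fold (log2 difference 0.95, SE 0.19, limma adjusted p = 0.00885). Without control 1 the difference was 1.11.

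H2-Eb1 encodes the beta chain of I-E and lies on chromosome 17 at 34305867 to 34316674. It measured 9.22, 9.08, 9.17, 8.47 and 8.62 in knockouts 1 to 5, against 8.29, 8.05, 7.74, 7.64 and 8.09 in controls 1 to 5. All knockouts lay above all controls, with knockout 4 nearest to control 1. The means were 8.91 ± 0.34 in knockouts and 7.96 ± 0.27 in controls (SD, n = 5 each), also 1.93-fold (log2 difference 0.95, SE 0.16, limma adjusted p = 0.00371).

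H2-Ea, the alpha chain gene that would complete I-E, is disabled by a promoter deletion in C57BL/6 mice, and RefSeq lists it as a transcribed pseudogene. It had 4.70 to 4.98 in knockouts and 4.67 to 4.94 in controls, under the background line in all 10 kidneys. A beta chain gene of I-E thus rose while its partner had no signal above background in either group. H2-Eb2, a further beta chain gene with both promoter motifs, was also at background, with means of 5.18 in knockouts and 5.17 in controls.

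**Figure D1:**
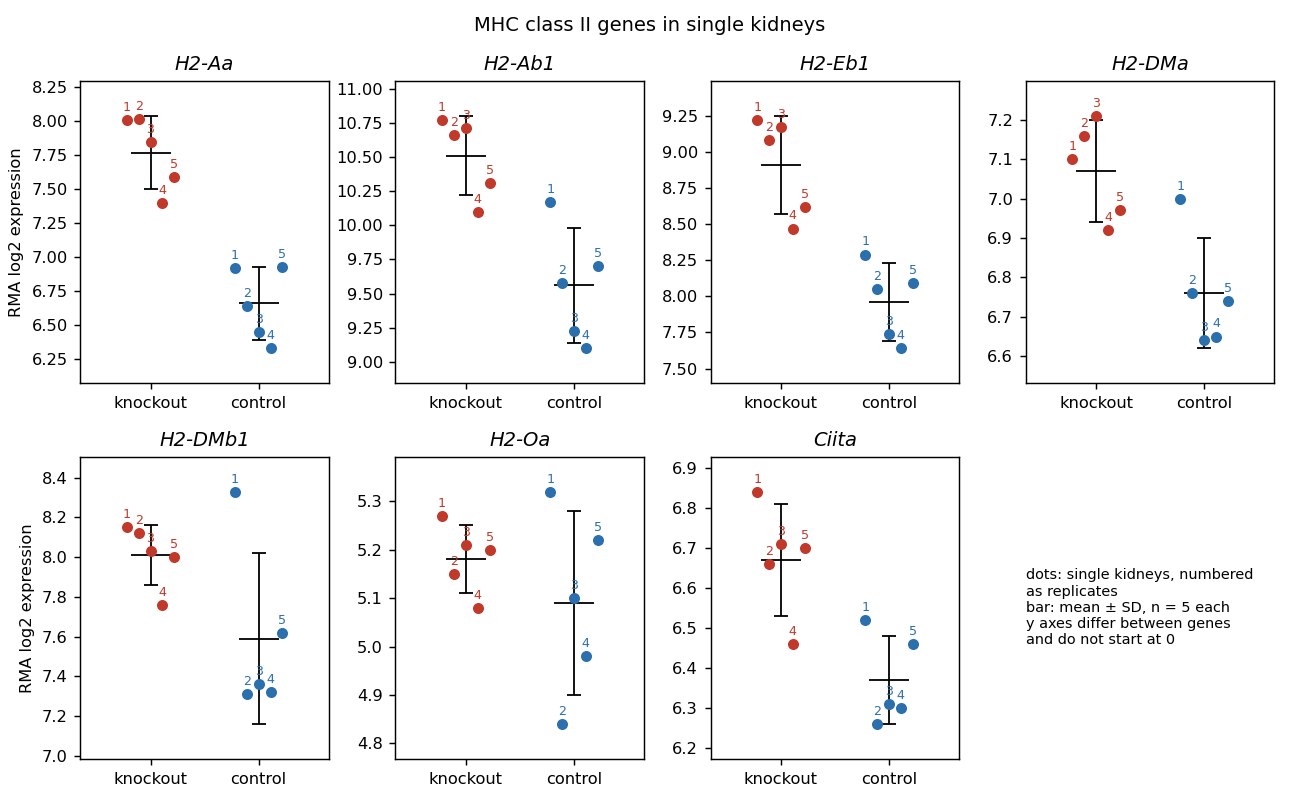
RMA log2 expression of the 7 measured class II genes in each kidney, knockouts left and controls right, with dots numbered by replicate and bars for the mean ± SD (n = 5 each). Only H2-Aa and H2-Eb1 separate fully, and control 1 is the highest control for every gene but H2-Aa.

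H2-DMa and H2-DMb1 encode the pair that removes the invariant chain fragment and edits the bound peptides. H2-DMa (chromosome 17 at 34119693 to 34139101) measured 7.10, 7.16, 7.21, 6.92 and 6.97 in knockouts 1 to 5, against 7.0, 6.76, 6.64, 6.65 and 6.74 in controls 1 to 5. Knockouts 4 and 5 lay below control 1, and the remaining 4 controls lay below every knockout. It rose 1.24-fold, with means of 7.07 ± 0.13 in knockouts and 6.76 ± 0.14 in controls (SD, n = 5 each; log2 difference 0.31, SE 0.08, limma adjusted p = 0.0248). This call did not survive leaving out knockout 1, 2 or 3 or control 3, 4 or 5, where the difference was 0.28 to 0.31 and the adjusted p 0.0524 to 0.0691.

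H2-DMb1 (chromosome 17 at 34153191 to 34160229) did not pass. Its values were 8.15, 8.12, 8.03, 7.76 and 8.0 in knockouts 1 to 5, against 8.33, 7.31, 7.36, 7.32 and 7.62 in controls 1 to 5. Control 1 was the highest of all 10 kidneys, and the other 4 controls lay below all 5 knockouts. The means were 8.01 ± 0.15 in knockouts and 7.59 ± 0.43 in controls (SD, n = 5 each), and the log2 difference of 0.43 had an SE of 0.17 (limma adjusted p = 0.152). Without control 1 the difference was 0.61 with an adjusted p of 0.00303, so 1 kidney decided this call. The neighbouring copy H2-DMb2 showed the same shape, with 7.63 to 8.0 in knockouts, 7.92 in control 1 and 7.08 to 7.36 in controls 2 to 5 (log2 difference 0.45, adjusted p = 0.0616). H2-DMb1 and H2-DMb2 are near-identical, so signal may be shared between their probes and the value of each is uncertain.

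H2-Oa encodes the alpha chain of H2-O, an inhibitor of H2-DM that is typical of B cells. It lies on chromosome 17 at 34092379 to 34095234 and measured 5.27, 5.15, 5.21, 5.08 and 5.20 in knockouts 1 to 5, against 5.32, 4.84, 5.10, 4.98 and 5.22 in controls 1 to 5. The groups overlapped almost entirely. Its means lay above 49.2% of negative control probe sets in knockouts and 47.2% of them in controls, so the gene was not above background and has no fold here (log2 difference 0.09, 95% interval -0.08 to 0.27, adjusted p = 0.526). The partner gene H2-Ob was as dim, with means of 5.28 in knockouts and 5.23 in controls.

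Ciita, on chromosome 16 at 10480014 to 10531064, measured 6.84, 6.66, 6.71, 6.46 and 6.70 in knockouts 1 to 5, against 6.52, 6.26, 6.31, 6.30 and 6.46 in controls 1 to 5. Knockout 4 was level with control 5 and below control 1, and the other 4 knockouts lay above all controls. The means were 6.67 ± 0.14 in knockouts and 6.37 ± 0.11 in controls (SD, n = 5 each), 1.23-fold higher in knockouts (log2 difference 0.30, SE 0.07, limma adjusted p = 0.0247). The 95% interval, 0.14 to 0.46, lay below those of H2-Aa (0.81 to 1.42), H2-Eb1 (0.60 to 1.30) and H2-Ab1 (0.54 to 1.36). Ciita was also dimmer than these chain genes in both groups. Its means lay above 81.9% of negative control probe sets in knockouts and 76.8% of them in controls. The call was lost without knockout 1, 2 or 3 or control 2, 3 or 4, with a difference of 0.26 to 0.31 and an adjusted p of 0.054 to 0.0636. Ciita is transcribed from several promoters used by different cell types, and the array gives 1 value for all of them.

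**Figure D2:**
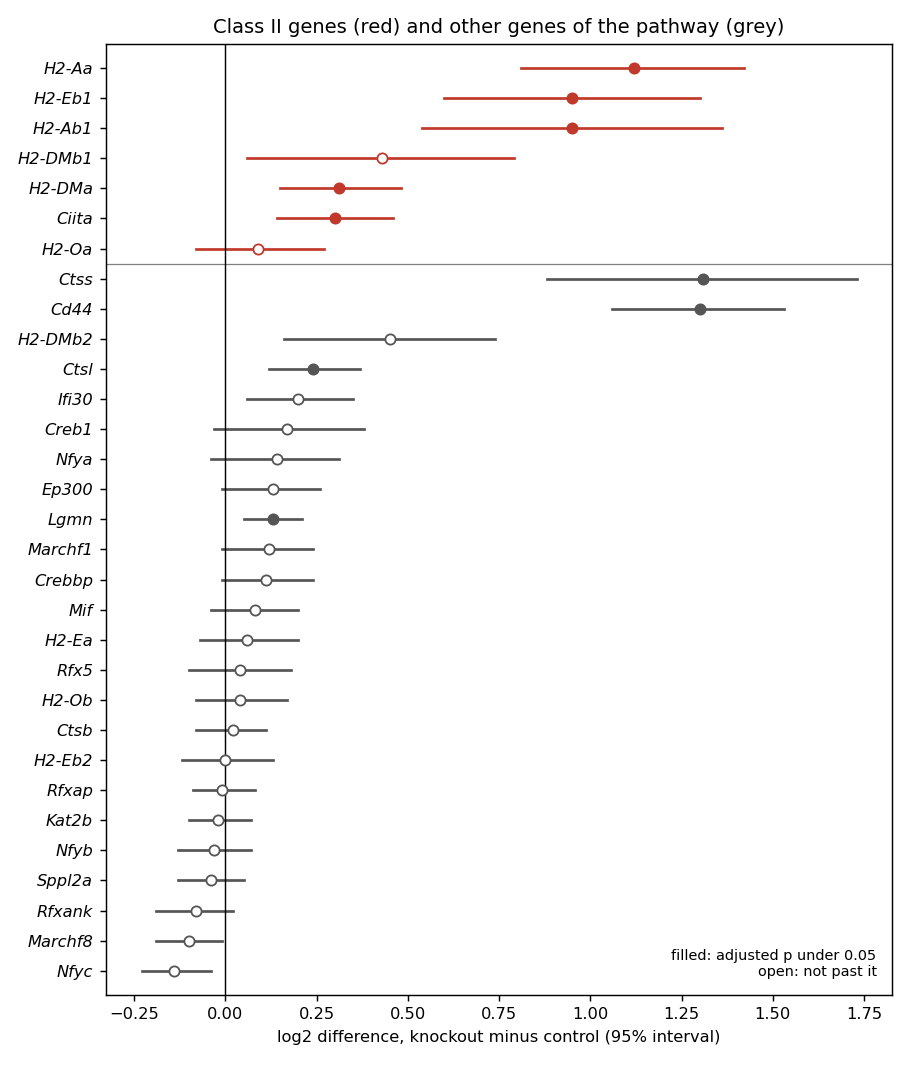
Log2 difference, knockout minus control, with its 95% interval for the 7 class II genes (red) and the 24 other measured genes of the pathway (grey); filled dots passed an adjusted p of 0.05. The 3 chain genes, Ctss and Cd44 lie near or above 1, and the promoter-binding factors lie near 0.

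Other genes of the class II pathway mostly did not pass. Of 24 measured, 4 rose and 0 fell, with a median log2 difference of 0.07, and the count was 2 without knockout 2 or control 3. Without control 1, 3 rose and 1 fell. The 4 genes that rose in the main comparison were the protease genes Ctss, Ctsl and Lgmn and the receptor gene Cd44. Ctss, the cathepsin that makes the last cuts in the invariant chain of antigen-presenting cells, measured 8.35 to 9.51 in knockouts and 7.37 to 7.96 in controls, or 2.48-fold (log2 difference 1.31, SE 0.20, adjusted p = 0.00191). Cd44, which joins Cd74 in a receptor for the cytokine Mif, was 2.46-fold higher (adjusted p = 6.99e-05), with means of 7.11 in knockouts and 5.81 in controls. Ctsl, the cathepsin that serves the same step in thymic epithelium, was 1.18-fold higher, and the asparagine endopeptidase gene Lgmn 1.10-fold higher. These smaller rises were less secure: leaving out 1 kidney in turn kept Ctsl past the threshold in 7 of 10 fits and Lgmn in 1 of 10.

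The factors through which Ciita acts on promoters showed no call in the main comparison. Rfx5, Rfxap and Rfxank, which together form the X box factor RFX, had log2 differences of 0.04, -0.01 and -0.08, with 95% intervals from -0.19 to 0.18 across the 3. The Y box factor subunits Nfya, Nfyb and Nfyc had 0.14, -0.03 and -0.14, of which Nfyc had the smallest adjusted p (0.0709). All 6 lay above at least 88.2% of negative control probe sets in controls.

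Upstream of Ciita, the receptor genes for interferon gamma rose while the cytokine gene had no signal above background. Of 11 measured genes of that pathway, 4 rose, 0 fell and 7 did not pass, with a median of 0.16. The count of 4 was 2 without knockout 1, 2, 3 or 4 or control 1 or 5. Ifngr1, the chain that binds the cytokine, averaged 8.90 ± 0.14 in knockouts and 8.37 ± 0.07 in controls (SD, n = 5 each; log2 difference 0.53, SE 0.06, adjusted p = 0.000499). Ifngr2, the signalling chain, was 1.22-fold higher (adjusted p = 0.00344). Jak1, a kinase bound to the receptor (log2 difference 0.14), and Irf4, a transcription factor of dendritic and B cells (0.29), also rose, but held in 2 of 10 and 3 of 10 fits without 1 kidney. Irf4 was dim, above the background line in 8 of 10 kidneys. It was at least 1.18-fold higher when values under that line were raised to it. Irf1, an interferon-induced activator of Ciita, differed by 0.16 and did not pass (adjusted p = 0.0857). Ifng measured 3.85 to 4.15 in knockouts and 3.87 to 4.08 in controls, under the background line in all 10 kidneys.

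MHC class I genes serve the display of peptides to CD8 T cells in nearly all cell types. Of 17 measured, 8 rose, 0 fell and 9 did not pass, with a median log2 difference of 0.21 and a highest of 0.44. B2m, the shared light chain, averaged 12.26 ± 0.11 in knockouts and 11.82 ± 0.19 in controls (SD, n = 5 each; 1.36-fold, adjusted p = 0.00726). The heavy chain gene H2-K1 was 1.31-fold higher (adjusted p = 0.0156) and H2-D1 1.27-fold (adjusted p = 0.0355), beside the immunoproteasome subunit gene Psmb8 (1.25-fold, adjusted p = 0.0497). The calls of H2-D1 and Psmb8 each held in 3 of 10 fits without 1 kidney. The count of class I genes that rose was 4 without knockout 1, 2 or 3 or control 5, and 5 without control 2 or 3. Whether class I and class II differed in response was not tested.

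Genes for contact with T cells rose in part. Of 10 measured, 4 rose, 0 fell and 6 did not pass, with a median of 0.23. Lgals9, a secreted galectin, and the adhesion molecule gene Icam1 were 1.46-fold and 1.45-fold higher (adjusted p = 0.00888 and 0.000843). Of the classical co-stimulators, Cd86 was dim, with means of 5.36 in knockouts and 4.96 in controls, and was at least 1.10-fold higher when values under the background line were raised to it (adjusted p = 0.00739). Cd80 passed (adjusted p = 0.0191) but was under that line in all 10 kidneys, with means of 4.57 in knockouts and 4.34 in controls, so it has no fold. On the T cell side, Cd4, the co-receptor that binds class II and is also made by mouse dendritic cells, measured 5.75 to 6.78 in knockouts and 5.17 to 5.4 in controls (at least 1.88-fold, adjusted p = 0.00223). With Cd3e (1.26-fold, adjusted p = 0.0220) it made 2 rises among 13 T cell genes, with 0 falls and a median of 0.02. Cd3e fell short without knockout 1, 2 or 3 (adjusted p 0.0501 to 0.0605), which left 1 T cell gene.

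In a whole kidney, more class II RNA per cell and more cells that carry it cannot be told apart. Markers of cells known to express class II are given next, as measured in the same kidneys. Of 17 measured markers of macrophages and monocytes, 16 rose and 0 fell, with a median log2 difference of 0.83, and their mean, relative to the controls, was 0.47 to 1.17 in knockouts and -0.08 to 0.12 in controls. Lyz2, the lysozyme gene of myeloid cells, was 5.19-fold higher, and C1qb, a subunit of the complement starter C1q, 2.41-fold; Mpeg1, which encodes a pore-forming protein, was 2.78-fold higher and Mrc1, a scavenging lectin gene, 2.65-fold. Of 9 genes shared by most leukocytes, 8 rose, with a median of 0.53, led by the tetraspanin gene Cd53 (1.90-fold) and Ptprc, which encodes the leukocyte antigen CD45 (1.76-fold). Laptm5 was 1.62-fold higher and Cd48, a dim gene, at least 1.44-fold.

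Of 14 dendritic cell markers, 3 rose and 0 fell (9 were higher and 0 were lower with an unadjusted p below 0.05), with a median of 0.22 and means of 0.09 to 0.38 in knockouts and -0.04 to 0.06 in controls. The count of 3 was 5 without knockout 4 or control 1 and 8 without knockout 5. For the unadjusted counts in this paragraph, the share of all genes past the same cutoff is not given here. Those counts alone are therefore not a result about these cells. The lectin gene Cd209a of monocyte-derived dendritic cells was at least 1.59-fold higher (adjusted p = 0.00209), and the lectin gene Clec10a, which macrophages also express, 1.23-fold. Cd24a, also a gene of kidney epithelium, was 1.38-fold higher. Clec9a, Flt3, Itgax and Ccl17 had log2 differences of 0.31, 0.27, 0.32 and 0.35 and did not pass (adjusted p 0.0532, 0.0548, 0.112 and 0.116). Xcr1, a marker of cross-presenting dendritic cells, was under the background line in all 10 kidneys, and Zbtb46, which defines classical dendritic cells, differed by 0.04 (95% interval -0.07 to 0.16). Of 10 B cell markers, 0 passed by limma (2 were higher and 0 were lower with an unadjusted p below 0.05), with a median of -0.01, and means of -0.04 to 0.14 in knockouts and -0.09 to 0.07 in controls. Ighm, the heavy chain gene of IgM, had the smallest p (log2 difference 0.45, limma adjusted p = 0.0955). It measured 7.37 in knockout 1 and 6.28 to 6.73 in the other knockouts. It passed in 1 of 10 fits without 1 kidney, the fit without knockout 4 (0.55, adjusted p = 0.0396). Those fits gave log2 differences of 0.28 to 0.55 and limma adjusted p up to 0.175. Bank1 differed by 0.12 (adjusted p = 0.192). Ms4a1, the CD20 gene of B cells, was under the background line in all 10 kidneys. The part of these cells in the class II differences was not tested.

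**Figure D3:**
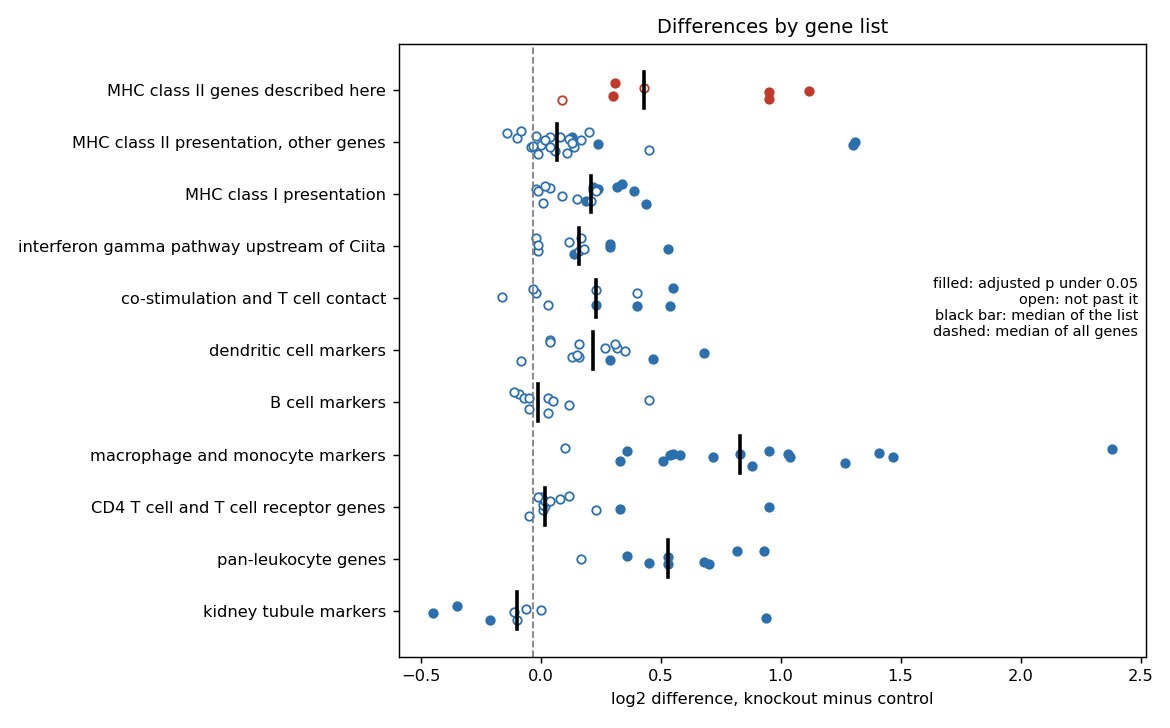
Log2 differences, knockout minus control, of the 7 class II genes (red) and of the genes of 10 lists (blue), with filled dots for an adjusted p under 0.05, black bars for list medians and a dashed line for the median of all genes (-0.03). Macrophage markers (median 0.83) and genes of most leukocytes (0.53) lie to the right, and B cell and T cell genes lie around 0.

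Each class II gene was also set against the macrophage markers of the same kidney. The log2 value of H2-Aa relative to the control mean, minus the mean of the macrophage markers, was 0.03 to 0.46 in knockouts and -0.24 to 0.34 in controls, so the groups overlapped. The same quantity was -0.14 to 0.28 in knockouts and -0.38 to 0.49 in controls for H2-Ab1, and -0.16 to 0.21 in knockouts and -0.24 to 0.20 in controls for H2-Eb1. The groups overlapped for all 3 chain genes. They also overlapped for Ciita, at -0.83 to -0.14 in knockouts and -0.16 to 0.15 in controls, and for H2-DMb1, at -0.73 to -0.06 in knockouts and -0.32 to 0.62 in controls. For H2-DMa the quantity was -0.71 to -0.26 in knockouts and -0.09 to 0.11 in controls, without overlap. This was not particular to H2-DMa. The class I gene H2-D1 had -0.70 to -0.27 in knockouts and -0.15 to 0.21 in controls, whereas B2m and H2-K1 overlapped. The share of all genes without overlap in this quantity is not given here. H2-Oa, at background, had -1.05 to -0.36 in knockouts and -0.30 to 0.19 in controls, also without overlap. Against the genes of most leukocytes instead, H2-Aa had 0.33 to 0.73 in knockouts and -0.26 to 0.34 in controls. H2-Eb1 had 0.10 to 0.49 in knockouts and -0.26 to 0.22 in controls, and H2-Ab1 0.12 to 0.47 in knockouts and -0.39 to 0.51 in controls. H2-DMa had -0.42 to -0.08 in knockouts and -0.15 to 0.13 in controls. Against the leukocyte genes the groups overlapped for H2-DMa and for each chain gene. These ranges are descriptions with no test.

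Knockouts also differed among themselves. Knockout 4 was the lowest knockout for all 7 class II genes, and knockouts 4 and 5 were the lowest pair for 5 of them. Knockout 4 was also the lowest for 9 of the 17 class I genes. Knockout 5 was the lowest in 14 of 17 macrophage markers, 8 of 9 genes of most leukocytes and 9 of 14 dendritic cell markers. Among 13 T cell genes knockout 5 was the lowest for 6 and knockout 2 for 5. Among 10 B cell markers knockout 2 was the lowest for 5 and knockout 5 for 2. Knockout 5 also kept the highest Stk11 signal of its group (9.31, against 9.07 to 9.21 in the others). H2-Aa in knockout 5 stood 0.93 above the control mean and the macrophage markers 0.47, whereas in knockout 4 the values were 0.74 and 0.67.

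Control 1 stood above the other controls in several gene groups. It exceeded the mean of controls 2 to 5 by 0.93 for H2-DMb1, 0.77 for H2-Ab1, 0.41 for H2-Eb1, 0.33 for H2-Aa, 0.30 for H2-DMa, 0.28 for H2-Oa and 0.19 for Ciita. By this difference H2-DMb1 ranked 7 and H2-Ab1 ranked 13 among 19475 genes. These were the genes with a mean above 5.23, the mean of the background lines of the arrays. The same excess was 0.16 on average over the 17 macrophage markers (-0.07 to 0.49), 0.13 over the 9 genes of most leukocytes (0.01 to 0.28) and 0.16 over the 17 class I genes. Control 1 was the highest control for 8 of the 17 macrophage markers, 5 of the 9 genes of most leukocytes and 9 of the 17 class I genes. The part of these cells in the class II values of control 1 was not tested.

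**Figure D4:**
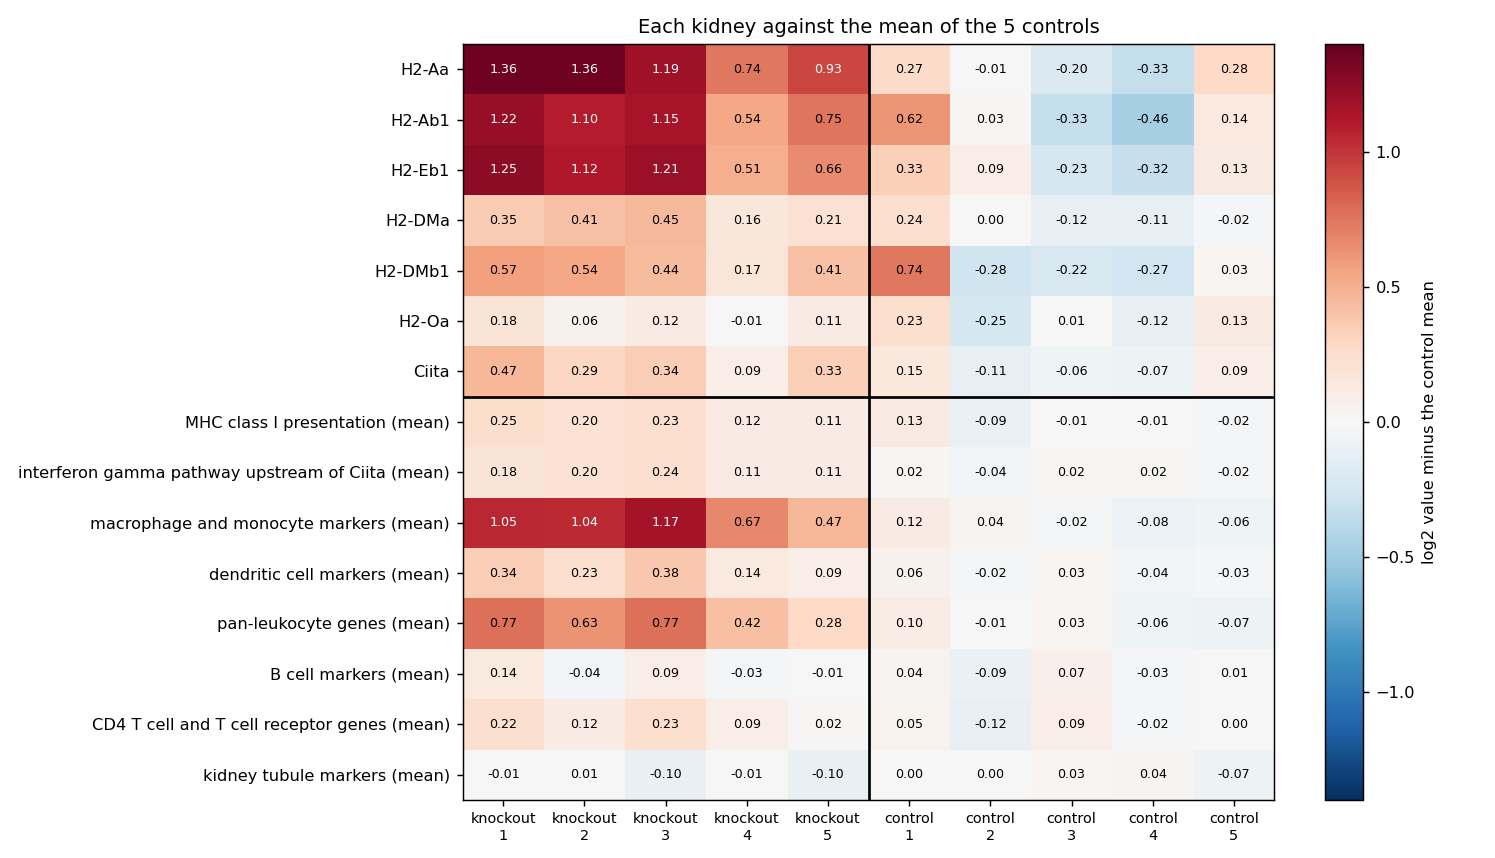
Log2 value of each class II gene (upper block) and mean of each gene list (lower block) in every kidney, minus the mean of the 5 controls, with knockouts left of the line and controls right. Red is higher and blue lower than the control mean: control 1 is red for H2-DMb1 (0.74) and H2-Ab1 (0.62). The other class II genes are paler in control 1 (0.15 to 0.33), and the mean of the macrophage markers is near white (0.12).

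The genes whose pattern was most like that of the chain genes were sought within groups. Each gene's group means were taken off, and Pearson's r was computed over the 10 kidneys with the mean of H2-Aa, H2-Ab1 and H2-Eb1, as a description with no test. The other class II genes had r of 0.901 (H2-DMa), 0.787 (Ciita), 0.772 (H2-DMb1) and 0.575 (H2-Oa). Without control 1 they were 0.879, 0.718, 0.825 and 0.378, in the same order. Such values were not particular to class II genes. The macrophage marker Adgre1 had r of 0.809 and the leukocyte gene Ptprc 0.791, above Ciita and H2-DMb1. Without control 1 these were 0.777 for Adgre1 and 0.843 for Ptprc. Genes with a mean above 5.23, the mean of the background lines, numbered 19475. Among them, the 10 with the highest r outside the set were Gm23769, Gm15931, Palmd, Mir107, Dhh, C3ar1, Echdc2, Gm24607, Gm16168 and Arhgap25. Their r ran from 0.911 down to 0.853. A search over so many genes with 10 kidneys returns high values for some in any case. Of these, 3 rose in knockouts: C3ar1, a complement receptor gene of myeloid cells (log2 difference 0.88), Arhgap25 (0.30) and Gm15931 (0.35). Their r without the 2 kidneys farthest from the median, knockout 4 and control 4, was 0.775, 0.811 and 0.877.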

How the data were processed

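The deposited table holds log2 values per transcript cluster made by the authors with RMA, per the submitters' processing notes (build mm10); the sources used here give no software version, and the log2 scale was read from the values (array medians 5.35 to 5.42). Sense cDNA came from 500 ng of total RNA, per the labels' protocols. No scan or slide label was used. Array number limits the precision. Of 72688 rows, 30604 had 1 symbol, 2146 several and 39938 none; only the first were used. Symbols were updated through Entrez identifiers (827 rows) or a unique synonym (308), and a gene's rows were averaged.

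Groups were compared with limma 3.58.1 in R 4.3.3 (lmFit, eBayes with a trend, two-sided), tested on simulated data first. Tables and plots used Python 3.11.15, pandas 2.3.3 and matplotlib 3.10.9. The class II genes and all lists were chosen with earlier results of these data known. The named genes are the class II genes, Stk11, up to 4 called genes per list with the largest differences (else the 2 with the smallest p) and the 10 most alike in pattern; others were named after their values were seen. The likeness profile had been planned with Cd74, which has no row of its own. A dim gene's fold is a bound with values raised to the array's negative control median. Genes that share a row with another symbol were left out of the lists. Percentages of negative control probe sets exceeded use each probe set's mean over the 10 arrays. Alternatives were quantile normalisation, a filter on dim genes, no trend, robust eBayes, array weights, the brightest row per gene, the replicate number as a block and leaving out each kidney.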

Additional observations from a re-analysis of the deposited data

Results flagged for a closer look

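Among 106 combinations of a named gene and a group, 2 held a kidney whose gap to the next, divided by the range, exceeded Dixon's critical value of 0.710, and chance gives about 1 in 20. H2-D1, a class I heavy chain gene, was 9.38 in control 1 and 8.94 to 8.99 in the other controls. Bank1, a B cell gene under the background line, was 4.36 in control 2 and 4.49 to 4.53 in the other controls. H2-DMb1 in control 1 came close without exceeding the value (ratio 0.702).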

How the results depend on the processing

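H2-Aa, H2-Ab1 and H2-Eb1 passed under every alternative listed above: leaving out each kidney gave log2 differences of 1.04 to 1.21, 0.84 to 1.11 and 0.87 to 1.06. H2-DMa gave 0.28 to 0.37 and Ciita 0.26 to 0.36, each past the threshold in 4 of 10 such fits, and H2-DMb1 0.36 to 0.61, past it only without control 1. H2-Oa gave 0.03 to 0.15 and Stk11 -0.28 to -0.22. The number of class II genes that rose was 3 to 6 without 1 kidney and 5 under each other alternative. No result changed direction.

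Leaving out 1 kidney gave 1089 to 1947 genes higher and 435 to 1473 lower. The count of lower genes moved over 1.5 times from 803 without knockout 1 (513), 2 (435), 3 (437) or 5 (1473) and without control 1 (496) or 3 (473). Quantile normalisation gave 1623 higher and 1301 lower, so 55.5% of calls were higher, beside 66.8%. In the fits without 1 kidney the genes that rose were 2 to 4 in the rest of the class II pathway (0 to 1 lower, the 1 without control 1), 4 to 9 for class I, 2 to 4 for interferon gamma, 3 to 5 for T cell contact, 3 to 8 for dendritic cells, 0 to 1 for B cells, 13 to 16 for macrophages, 1 to 2 for T cells and 8 for most leukocytes. Quantile normalisation gave 7 dendritic cell and 4 T cell genes higher, and 1 other class II pathway gene lower. Array weights gave 5 dendritic cell genes. The filter on dim genes left 2 T cell contact genes, as Cd86 and Cd80 were not tested there, nor was H2-Oa. Lgmn did not pass with quantile normalisation, no trend, array weights or the block, H2-D1 with quantile normalisation, Psmb8 without the trend, or Jak1 with quantile normalisation, no trend, robust eBayes or the block. The causes were not tested.

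With the replicate number as a block, 1826 genes were higher and 955 lower, with 5 dendritic cell genes; the same 5 class II genes passed and H2-DMb1 had an adjusted p of 0.0702. Kidneys of the same number had correlations of their deviations of 0.25, 0.313, 0.104, -0.079 and 0.194, and 4 of 5 knockouts matched the control of their own number best. As the labels name no covariate, the main comparison does not take the numbers as pairs. Whether they mark pairs was not tested.

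Signal over background limits H2-Oa, and Cd74 was not measured under the rule.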

Other observations

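Control 1 also differed from the other controls outside the class II genes. It exceeded the mean of controls 2 to 5 by 1.39 for Pigr, the epithelial receptor that carries antibodies into secretions, where the other 4 controls had an SD of 0.26. For H2-D1, B2m and H2-K1 the excess was 0.41, 0.38 and 0.37, with SDs of 0.03, 0.09 and 0.06 among the other controls. These genes were chosen after their values were seen.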
